A study of Mus musculus with 6 samples.

Results

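The genes described here encode integrins, cadherins and protocadherins, the receptors that hold cells to the matrix and to one another. They were chosen by name, as protein-coding rows whose symbol is that of an integrin alpha or beta chain, Itgbl1, a numbered cadherin, a Fat, Dachsous or Celsr gene, or a protocadherin. Of 13970 genes listed by the authors, 86 met this choice. A log2 ratio was deposited for the 83 that were listed in both extractions, while Itga2 and Pcdhb9 were listed for the standard extraction alone (as were 0.537% of all genes listed) and Pcdhb8 for the optimized extraction alone (4.42%).

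The study sequenced RNA that sedimented in heavy particles, among them ribosomes and polyribosomes, from cultured astrocytes, the star-shaped glia of the brain. In all groups the cells were untreated, thawed primary astrocytes of the C57BL/6JOlaHsd genotype from newborn mice (postnatal days 0 to 2), with males and females pooled, and both buffers held cycloheximide, which stalls ribosomes on mRNA. The 3 standard libraries (batches A, B and C) came from cells that were scraped, frozen and then lysed in 1% Triton X-100 and 1% sodium deoxycholate with 50 mM KCl and 10 mM MgCl2. The 3 optimized libraries (batches A, B and C) came from cells lysed on the plate in 2% DDM, a mild detergent, with 200 mM KCl and 10 mM MgCl2. In both, 200 µl of lysate holding 12 µg of RNA was spun through 1 M sucrose. The labels call the batches biological repetitions and do not say whether they came from separate litters. Freezing, detergent and salt differ together between the groups, so their parts in any difference cannot be told apart.

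Each gene has a single value, the log2 ratio that the authors' deposited table gives for optimized over standard. A log2 ratio of 1 means 2-fold more in the optimized extraction. There are no values per library, so the spread between batches and the sequencing depth are unknown, no gene was tested, and differences between groups of genes are given as descriptions. Across the 13278 genes listed in both extractions the median log2 ratio was 1.09 (a 2.13-fold higher value), with quartiles of 0.90 and 1.27. Genes are therefore set against that value, called the shared-gene median here. All 10 astrocyte markers checked were listed in both extractions, against 1 of 7 microglial, 6 of 8 oligodendrocyte lineage, 3 of 6 neuronal, 3 of 5 endothelial and 5 of 5 fibroblast and meningeal markers. The astrocyte markers had a median log2 ratio of 0.97 (0.61 to 1.18) and the fibroblast and meningeal markers one of 0.65 (0.49 to 0.84). The ratio over the markers that were listed had a median of 0.94 for the oligodendrocyte lineage, 0.72 for neurons and 0.81 for endothelium, and was 0.85 for the microglial marker. The tables hold ratios and no levels, and in bulk RNA fewer cells of a type and less RNA per cell cannot be told apart.

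An integrin is a pair of an alpha chain, which largely sets the ligand, and a beta chain, whose tail binds talin and kindlin and so links the matrix to actin. Classical cadherins bind the same or a related cadherin on the next cell and are joined to actin by catenins. Clustered protocadherins give cells, above all neurons, a surface identity through combinations of variable extracellular parts, and Fat, Dachsous and Celsr proteins orient cells within a sheet. All are made on ribosomes at the endoplasmic reticulum (ER) and most are anchored in the plasma membrane by a hydrophobic segment. Astrocytes use them to contact the vascular basement membrane, neurons and other astrocytes.

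Nearly all of these genes had a lower log2 ratio than the typical gene. Over the 83 genes the median log2 ratio was 0.66 with quartiles at 0.52 and 0.84, which is 1.58-fold in favour of the optimized extraction, against 2.13-fold for all shared genes. The fibroblast and meningeal markers, with a median of 0.65, stood at the same height, and the astrocyte markers higher, with a median of 0.97. Of the astrocyte markers, Slc1a3 and Slc1a2 (0.61 each), Sox9 (0.71) and Gja1 (0.74) stood near the members' median. The other astrocyte markers lay between 0.96 and 1.18. The part of either cell type in the members' values was not tested. Of the 83, 79 (95.2%) lay under the shared-gene median, where 50.0% of all genes lie by definition. The 4 above it in the authors' deposited table were the cadherin gene Cdh22 (1.24), the planar polarity gene Celsr1 (1.20), the platelet integrin gene Itga2b (1.16) and the giant cadherin gene Fat1 (1.14). A log2 ratio of at least 1 was listed for 8 genes (9.64%), against 63.0% of all shared genes. The other 4 of these in the authors' deposited table were Itgb5 (1.09), Itga3 (1.05), Cdh26 (1.04) and Pcdh7 (1.03). Among the 83 genes 48 (57.8%) had a log2 ratio of at most 0.71, a range that holds the lowest 10.0% of all shared genes. None had a log2 ratio below 0, so no gene of the 83 was listed as higher in the standard extraction, against 0.392% of all shared genes. None lay 2-fold under the shared-gene median, against 0.587% of all shared genes. The lowest in the authors' deposited table was Pcdhb4 at 0.10, or 1.07-fold. The plot of all members by class shows that the classes differ mainly in how far they reach below the typical range.

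**Figure D1:**
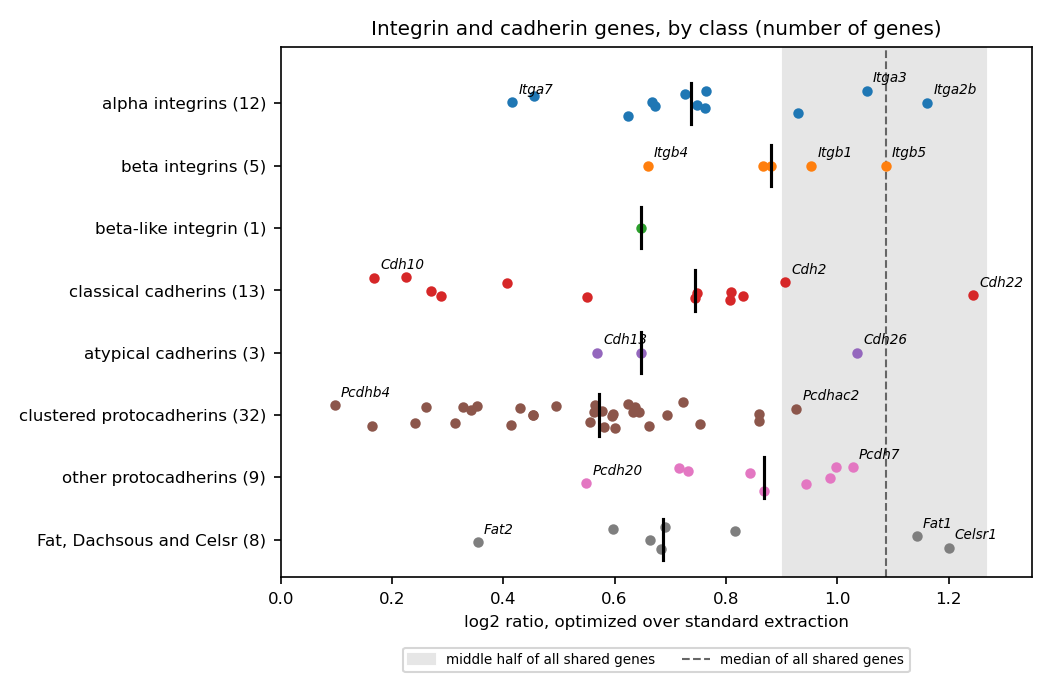
Log2 ratio (optimized over standard extraction, horizontal axis) of each of the 83 genes, 1 point per gene, in rows by class with the number of genes. Black bars are class medians, the dashed line is the median of all shared genes (1.09) and the grey band their middle quartiles (0.90 to 1.27). The 32 clustered protocadherins all lie left of the dashed line.

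Integrin alpha chains lay below beta chains, with overlapping ranges. The 12 alpha chains had a median log2 ratio of 0.74 and a range from 0.42 to 1.16, and the 5 beta chains a median of 0.88 and a range from 0.66 to 1.09. The difference of the medians, alpha minus beta, was -0.14 on the log2 scale, and 9 of the 12 alpha chains lay below the beta median. Without the integrins of the study's own lists it was -0.23. Of the alpha chains 11 were under the shared-gene median, and so were all 5 beta chains, although Itgb5 equals it at the precision given here. Values at least 2-fold higher were listed for 2 alpha chains and 1 beta chain, against 63.0% of all shared genes.

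Among the beta chains, Itgb5, which pairs with the alpha-v chain in a vitronectin receptor, had a log2 ratio of 1.09 in the authors' deposited table. Itgb1, the partner of most alpha chains, stood at 0.95 in the authors' deposited table. In the authors' deposited table Itgb8 stood at 0.88, a chain that with alpha-v releases active TGF-beta in the brain, and Itgb3 at 0.87. The beta values descended without a clear break. The lowest, Itgb4, had a log2 ratio of 0.66 in the authors' deposited table; it binds laminin together with alpha-6 and has a cytoplasmic tail far longer than that of other beta chains. Itgbl1, a secreted protein that resembles a beta chain and was kept out of both groups, had a log2 ratio of 0.65 in the authors' deposited table.

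The alpha chains did not follow one order by ligand. Of the collagen receptors, the authors' deposited table listed Itga1 at 0.67, Itga10 at 0.67 and Itga11 at 0.46. Itga2 (chromosome 13, 114833081 to 114932100), the other collagen-binding alpha chain, was listed for the standard extraction alone, as were 0.510% of protein-coding genes. The laminin receptor chains differed widely, with Itga3 at 1.05, Itga6 at 0.75 and Itga7 at 0.42 in the authors' deposited table. For the chains that read the RGD motif of matrix proteins, the authors' deposited table gave 1.16 for Itga2b, 0.76 for Itgav, 0.73 for the fibronectin receptor chain Itga5 and 0.62 for Itga8. Itga4, a receptor chain for Vcam1, was listed at 0.76 and Itga9, which binds tenascin, at 0.93 in the authors' deposited table. Of all shared genes 2.44% were lower than Itga7, while Itga3, of the same ligand group, was the second highest alpha chain, so chains of this ligand group spanned most of the class. Itga10 shares 33.5% of its exon bases with another gene on the same strand, so its value is uncertain to that extent.

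Chains that pair with each other in the cell differed by varying amounts. Of 16 known pairs with both chains listed in both extractions, the alpha chain was lower in 13 and higher in 3. These comparisons are not independent, since 11 of the 16 pairs use Itgb1. The narrowest gap was between Itga9 and Itgb1 (-0.02, alpha minus beta). The widest gap was between Itga7 and Itgb1 (-0.54, alpha minus beta), followed by Itga11 and Itgb1 (-0.50). Itgav was lower than each of its partners, with alpha minus beta differences in the authors' deposited table of -0.32 for Itgb5, -0.19 for Itgb1, -0.12 for Itgb8 and -0.10 for Itgb3. Exceptions were Itga2b over Itgb3 (0.30), Itga3 over Itgb1 (0.10) and Itga6 over Itgb4 (0.09), again as differences of log2 ratios in the authors' deposited table. The pair plot shows gaps that differ among alpha chains on the same beta chain, and also among the beta partners of Itgav and of Itga6.

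**Figure D2:**
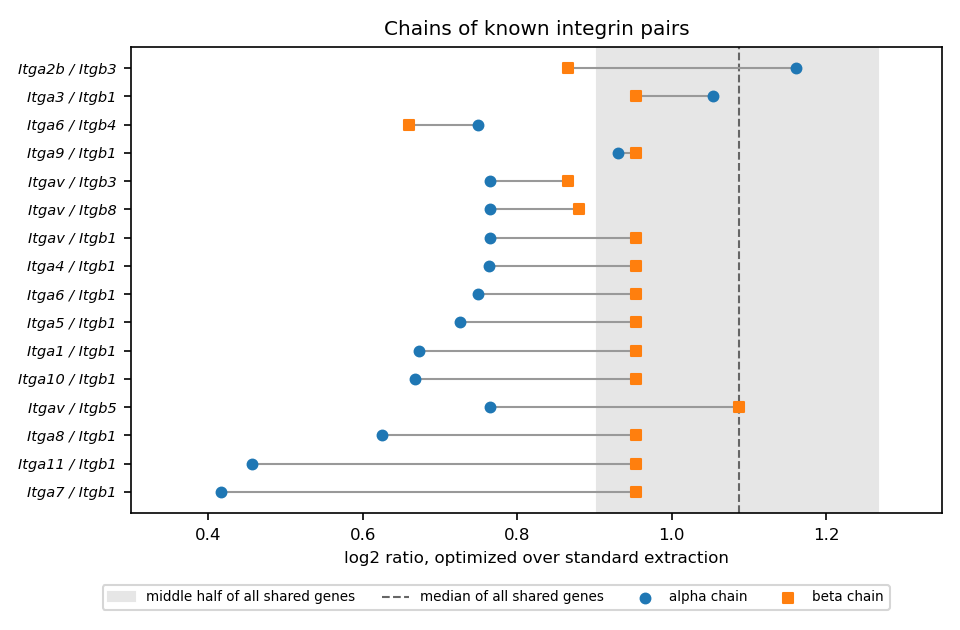
Log2 ratio (horizontal axis) of the alpha chain (circle) and the beta chain (square) for 16 known integrin pairs, ordered by the difference. The dashed line and grey band are the median and middle quartiles of all shared genes. The alpha chain lies left of its partner in 13 of 16 pairs.

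Classical cadherins ranged more widely than any integrin class, from the highest of all 83 genes to the third lowest. The median log2 ratio of the 13 classical cadherins was 0.74, with quartiles at 0.29 and 0.81, and 12 were under the shared-gene median. The type I cadherins were close together: the authors' deposited table listed Cdh2, the N-cadherin that joins neural cells, at 0.91, Cdh3 (P-cadherin) at 0.81 and Cdh4 (R-cadherin) at 0.74. The 10 type II cadherins had a lower median of 0.48 and were spread over the whole class range. The authors' deposited table listed Cdh22 highest at 1.24, then the mesenchymal Cdh11 at 0.83, Cdh18 at 0.81 and Cdh20 at 0.75. Cdh6 was listed at 0.55 and Cdh12 at 0.41 in the authors' deposited table. The lowest were Cdh5 (0.29), Cdh19 (0.27), Cdh8 (0.22) and Cdh10 (0.17), as listed in the authors' deposited table. Between 0.761% and 1.31% of all shared genes were lower than each of these 4. Cdh5 is VE-cadherin, the junction protein of endothelium, and of the other endothelial markers Tek and Kdr were listed at 0.94 and 0.81 in the authors' deposited table, while Pecam1 and Cldn5 had no row; the part of such cells in the value was not tested. Cdh19 is known from Schwann cells and other glia of the neural crest, and Cdh8, Cdh10 and Cdh12 from neurons of the brain. Of the neuronal markers, Tubb3 was listed at 1.16, Map2 at 0.72 and Syt1 at 0.64, while Rbfox3, Snap25 and Dcx had no row. The part of such cells in the cadherin values was not tested.

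Of the cadherins outside types I and II, Cdh13 (T-cadherin), which is held by a lipid anchor and has no cytoplasmic tail, had a log2 ratio of 0.57 in the authors' deposited table. Cdh17, the liver-intestine cadherin, was listed at 0.65 and Cdh26 at 1.04 in the authors' deposited table.

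By median, clustered protocadherins were the lowest class. Over their 32 genes the median log2 ratio was 0.57, or 1.49-fold, with quartiles at 0.40 and 0.64, and all 32 were under the shared-gene median. None reached a 2-fold higher value, against 63.0% of all shared genes, and 27 (84.4%) had a log2 ratio of at most 0.71, against 10.0% of all shared genes. The classical cadherins had a median 0.17 higher (0.08 with means in place of medians). Of the 32 clustered genes 28 lay below the classical median, while 6 of the 13 classical cadherins lay below the clustered median. The 10 type II cadherins alone had a median of 0.48, below that of the clustered genes. The 4 lowest classical cadherins lay among the lowest clustered genes. The 9 other protocadherins had a median of 0.87, a difference of -0.30 (clustered minus other), and 31 of 32 clustered genes lay below it. Classical cadherins lay between, at a difference of -0.12 from the other protocadherins (classical minus other), or -0.24 with means.

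All clustered genes lie on chromosome 18 of mm10, in the order alpha (36930184 to 37187661), beta (37264938 to 37524479) and gamma (37661793 to 37841873). From the alpha cluster the rows held only Pcdhac2, of 14 annotated genes, and the authors' deposited table gave it 0.93, the highest value of the clustered genes. The 12 Pcdhb genes with a ratio had a median of 0.61. Among them Pcdhb16 and Pcdhb20 were listed at 0.86 each, and Pcdhb22 at 0.69, in the authors' deposited table. Pcdhb4 (0.10) and Pcdhb2 (0.16), near the start of the beta cluster, were the lowest of all 83 genes in the authors' deposited table, and Pcdhb18 (0.34), further along, was the next lowest of the cluster. The other Pcdhb genes lay between 0.56 and 0.66 in the authors' deposited table. Neighbouring genes of the beta cluster also divided by listing. Pcdhb8 (37355121 to 37358604) was listed for the optimized extraction alone, as were 2.01% of protein-coding genes, and the next gene, Pcdhb9 (37400855 to 37403909), for the standard extraction alone, as were 0.510%. Neither listing is read as absence from the other extraction, because the sources used here do not give the rule for such listings.

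The 19 Pcdhg genes had a median of 0.49, from 0.24 to 0.75. Subfamilies A and B had medians of 0.49 (11 genes) and 0.52 (6 genes), and their ranges overlapped. Highest in the authors' deposited table were Pcdhga12 at 0.75 and Pcdhgc3 at 0.72, and the lowest were Pcdhgb2 at 0.24, Pcdhga11 at 0.26 and Pcdhga5 at 0.31. High and low genes were interspersed along the cluster, as the plot by position shows. Each gamma gene joins its own first exon to constant exons shared by the whole cluster, and 31.5% to 66.8% of their annotated exon bases were shared with another gene on the same strand. Ratios of single gamma genes, and of Pcdhac2, are uncertain, since the sources used here do not say how reads from shared exons were assigned. The beta genes have 1 coding exon each and little such sharing (2 of 12, at most 9.67% of exon bases), with a median of 0.61. The part of read assignment in the values of the clustered genes was not tested. An additional row, with no symbol in the authors' deposited table, carries the identifier of Pcdhgc4 and was listed at 0.59. It is outside the choice by symbol and so not among the 83 genes. It does count as a shared gene and as an annotated gene with a row.

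**Figure D3:**
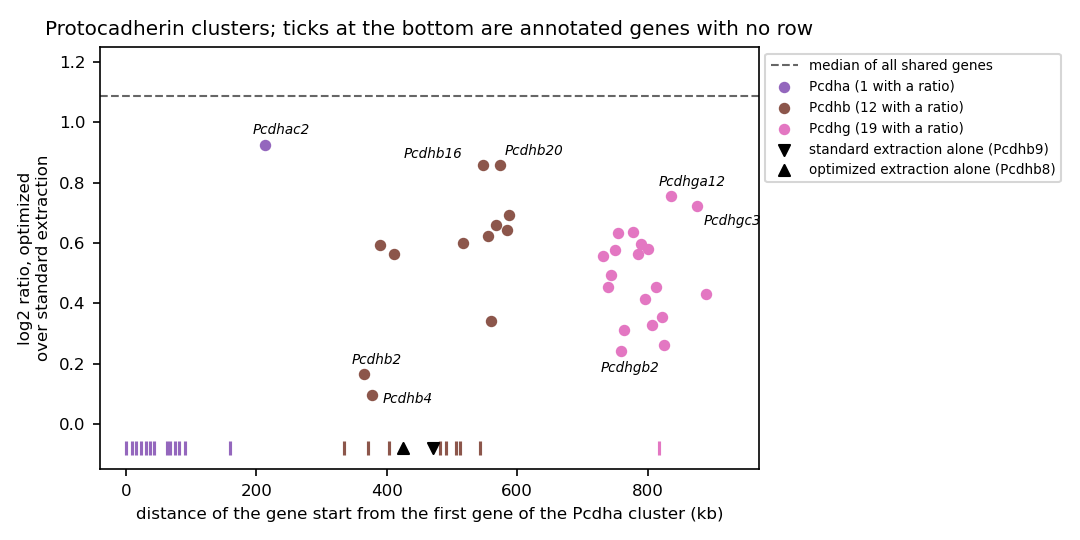
Log2 ratio (vertical axis) of the clustered protocadherin genes against the distance of the gene start from the first Pcdha gene in kilobases (horizontal axis), coloured by cluster. Ticks at the bottom are annotated genes that have no row, triangles are the 2 genes listed for a single extraction, and the dashed line is the median of all shared genes (1.09), above every point. Pcdhgc4, which has a row without a symbol, is not drawn.

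The protocadherins outside the clusters lay close to the beta integrins. The authors' deposited table listed Pcdh7 at 1.03, Pcdh10 at 1.00, Pcdh9 at 0.99 and Pcdh11x at 0.94. Pcdh19, whose human counterpart is a gene of epilepsy, was listed at 0.87 and Pcdh17 at 0.84 in the authors' deposited table. The lower genes in the authors' deposited table were Pcdh18 at 0.73, Pcdh1 at 0.72 and Pcdh20 at 0.55. All 9 were under the shared-gene median, and Pcdh20 alone had a log2 ratio of at most 0.71. Pcdh1 lies on chromosome 18 (38185914 to 38212053), a short way past the gamma cluster, and its value lay inside the ranges of both the clustered and the other protocadherins.

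The giant cadherins held 2 of the 4 genes above the shared-gene median. The 8 genes had a median of 0.69 and a range from 0.35 to 1.20. Members of a family stood apart: the authors' deposited table listed Celsr1 at 1.20 and Celsr2 at 0.60, both partners of Frizzled and Vangl in planar polarity. Of the Fat genes, the authors' deposited table listed Fat1 at 1.14, Fat4 at 0.82, Fat3 at 0.69 and Fat2 at 0.35. Dachsous genes, the ligands of Fat proteins, were alike, with Dchs1 at 0.68 and Dchs2 at 0.66 in the authors' deposited table. The gene of the Golgi kinase that modifies both, Fjx1, had a log2 ratio of 1.16 in the authors' deposited table.

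The start of the protein bears on how such mRNAs reach the ER, since a hydrophobic stretch there directs the ribosome to the membrane. The mean Kyte-Doolittle hydropathy of the most hydrophobic 19 codons among the first 40 had a median of 1.51 over the 83 genes and 0.33 over 12521 other protein-coding genes. A value of at least 1.6 was found in 35 (42.2%) of the 83 genes and in 11.9% of the others. The first 120 coding bases are shown for the highest and lowest genes of 5 classes and for 1 gene of a cytosolic partner, so that high and low members can be read side by side. They come from GENCODE M21 transcripts (GRCm38, coding strand, 5′ to 3′), and capitals mark the 19 codons with the highest mean hydropathy.
Itga2b: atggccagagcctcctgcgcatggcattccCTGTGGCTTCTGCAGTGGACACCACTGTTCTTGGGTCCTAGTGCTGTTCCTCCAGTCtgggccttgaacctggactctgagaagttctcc
Itga7: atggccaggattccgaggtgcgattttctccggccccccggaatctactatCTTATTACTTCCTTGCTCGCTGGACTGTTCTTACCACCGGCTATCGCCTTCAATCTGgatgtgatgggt
Itgb5: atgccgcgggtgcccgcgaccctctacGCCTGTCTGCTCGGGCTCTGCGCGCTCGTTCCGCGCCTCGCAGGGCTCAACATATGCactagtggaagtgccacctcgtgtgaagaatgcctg
Itgb4: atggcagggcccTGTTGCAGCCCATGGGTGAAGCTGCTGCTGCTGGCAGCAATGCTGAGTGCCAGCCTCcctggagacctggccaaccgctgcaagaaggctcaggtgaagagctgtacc
Cdh22: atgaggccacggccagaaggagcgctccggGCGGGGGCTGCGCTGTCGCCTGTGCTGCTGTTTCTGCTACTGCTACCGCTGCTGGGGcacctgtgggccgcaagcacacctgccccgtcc
Cdh10: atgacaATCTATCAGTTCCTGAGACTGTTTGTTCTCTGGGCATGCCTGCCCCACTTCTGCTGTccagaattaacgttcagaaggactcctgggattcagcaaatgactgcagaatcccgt
Pcdh7: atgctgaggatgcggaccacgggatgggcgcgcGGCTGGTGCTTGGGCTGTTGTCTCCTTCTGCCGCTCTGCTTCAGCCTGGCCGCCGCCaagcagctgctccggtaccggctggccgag
Pcdh20: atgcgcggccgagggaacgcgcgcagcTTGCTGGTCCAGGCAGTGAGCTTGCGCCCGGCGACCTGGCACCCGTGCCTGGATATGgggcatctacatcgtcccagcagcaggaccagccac
Celsr1: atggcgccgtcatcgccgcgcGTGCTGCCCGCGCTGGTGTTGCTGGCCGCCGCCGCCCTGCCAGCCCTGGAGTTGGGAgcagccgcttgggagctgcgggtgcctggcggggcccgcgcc
Fat2: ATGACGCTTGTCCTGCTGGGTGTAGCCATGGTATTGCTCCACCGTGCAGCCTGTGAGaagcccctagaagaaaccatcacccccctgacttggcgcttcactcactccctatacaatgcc
Bcar1: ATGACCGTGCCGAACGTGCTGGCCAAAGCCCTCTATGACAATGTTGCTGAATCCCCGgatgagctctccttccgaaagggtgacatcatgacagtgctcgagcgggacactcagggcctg

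In 4 of these 5 classes the gene with the higher log2 ratio had the more hydrophobic stretch, and the alpha integrins were the exception. Among genes not shown, the clustered protocadherins had the same order (Pcdhac2 1.84, Pcdhb4 1.68). The cadherins outside types I and II had the reverse (Cdh26 0.58, Cdh13 1.58). All these genes were picked as the extremes of the log2 ratio, so the tally is no measure of a trend over the classes. The capitals average 0.97 in Itga2b (chromosome 11, 102453297 to 102470122, minus strand) and 1.80 in Itga7 (chromosome 10, 128933818 to 128958282, plus strand), the highest and the lowest alpha chain by log2 ratio. In the beta chains they average 1.79 in Itgb5 (chromosome 16, 33829665 to 33949338, plus strand) and 1.61 in Itgb4 (chromosome 11, 115974709 to 116008412, plus strand). For the classical cadherins the averages were 2.20 in Cdh22 (chromosome 2, 165111507 to 165234853, minus strand) and 1.40 in Cdh10 (chromosome 15, 18818947 to 19014236, plus strand). Among the other protocadherins they were 1.94 in Pcdh7 (chromosome 5, 57717967 to 58133230, plus strand) and 0.59 in Pcdh20 (chromosome 14, 88464743 to 88471396, minus strand). In the giant cadherins they were 2.04 in Celsr1 (chromosome 15, 85898929 to 86033777, minus strand) and 1.63 in Fat2 (chromosome 11, 55250609 to 55336564, minus strand). Bcar1 (chromosome 8, 111710474 to 111743809, minus strand), a docking protein of integrin signalling with no such stretch, had an average of 0.19. Members with a value of at least 1.6 had a median log2 ratio of 0.69 and members without one a median of 0.65. Spearman's rho between this hydropathy and the log2 ratio was 0.17 across the 83 genes and -0.26 across 12604 protein-coding genes, as a description across genes.

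Other genes with an N-terminal stretch were also low, to differing degrees. Genes of similar coding length, or with a single coding exon, had medians near the shared-gene median. Other protein-coding genes with an N-terminal value of at least 1.6 (1487 genes) had a median log2 ratio of 0.87, and 27.2% of them had a log2 ratio of at most 0.71. The 35 members past the same limit had a median of 0.69, with 51.4% at 0.71 or less. For all 83 these values were 0.66 and 57.8%. Of the 1487, the 121 that also fell in the bin of the longest coding sequences, when all protein-coding genes were put in 10 bins by coding length, had a median of 0.78, with 90.9% under the shared-gene median and 37.2% at 0.71 or less. The 83 genes have long coding sequences (median 2793 bases, from 1482 in Itgbl1 to 14943 in Fat4), and over all protein-coding genes the bins that hold such lengths had median log2 ratios between 1.02 and 1.07. Across the 83 genes Spearman's rho of the log2 ratio was 0.25 with coding length and 0.07 with the length of the annotated 3′ untranslated region. Over 12604 protein-coding genes the rho with coding length had the other sign (-0.19); genes are not independent replicates and these are descriptions. A single coding exon, as in the Pcdhb genes, went with a median of 1.10 in 710 other genes, against 0.61 in the 12 Pcdhb genes. The 118 of those genes that also had an N-terminal stretch had a median of 0.98.

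Genes of proteins that work with these receptors inside the cell were near or somewhat above the typical gene. For the 22 integrin linkers the median was 1.16, 6 were under the shared-gene median, and 20 (90.9%) were at least 2-fold higher in the optimized extraction, against 63.0% of all shared genes. The authors' deposited table put highest Bcar1 (1.48), Itgb1bp1, which binds the beta-1 tail (1.47), the actin crosslinker gene Flna (1.46) and the adaptor gene Crk (1.41). Lowest among the linkers in the authors' deposited table were Lims2 and Parvb (0.81 each), Tgfb1i1 (1.01) and Pxn, the gene of paxillin (1.02). The 13 genes of cadherin tail partners had a median of 1.13, with 6 under the shared-gene median and 9 at least 2-fold higher; these shares, 46.2% and 69.2%, were close to the 50.0% and 63.0% of all shared genes. Here the authors' deposited table had Pkp4 (1.60), Plekha7 (1.46), Vezt (1.34) and Arvcf (1.26) at the top, of which Vezt is itself a membrane protein. At the bottom the authors' deposited table had the alpha-T-catenin gene Ctnna3 (0.53), Jup (0.88), the p120-catenin gene Ctnnd1 (0.94) and Ctnna2 (0.95). Both lists together (35 genes) had a median of 1.14, a difference of -0.48 on the log2 scale (surface genes minus these partners). For N-cadherin the authors' deposited table thus gave 0.91, against 1.13 for beta-catenin (Ctnnb1), 1.04 for alpha-E-catenin (Ctnna1) and 0.94 for p120-catenin.

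**Figure D4:**
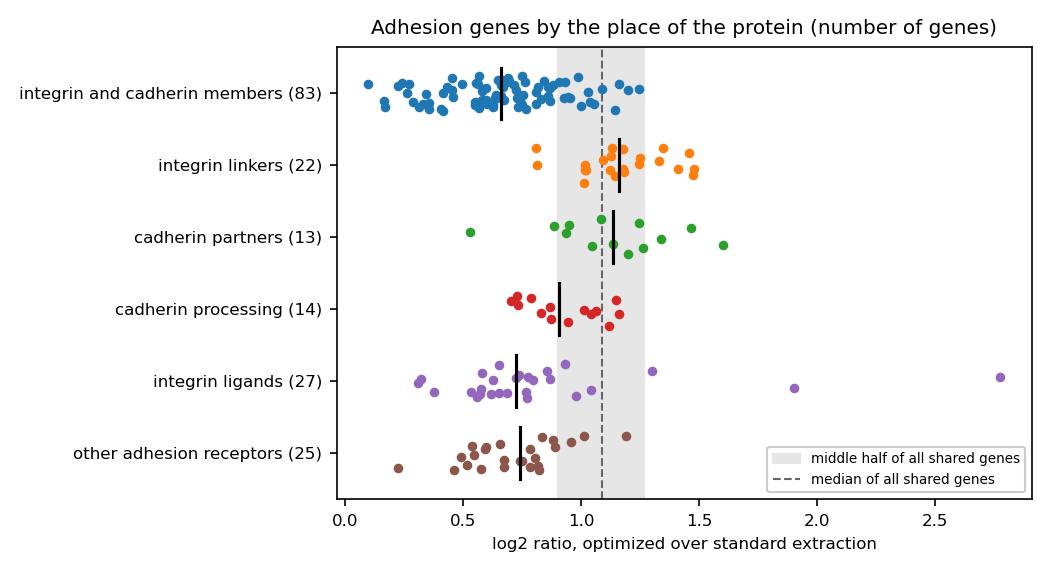
Log2 ratio (horizontal axis) of the 83 integrin and cadherin genes and of 5 lists of related genes, 1 point per gene, with the number of genes. Black bars are medians, and the dashed line and grey band are the median and middle quartiles of all shared genes. Linkers and partners inside the cell have medians of 1.16 and 1.13, ligands and other adhesion receptors medians of 0.72 and 0.74.

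Genes of ligands and of other adhesion proteins lay where the receptors did. For the 27 integrin ligands the median was 0.72, 24 were under the shared-gene median, and 4 (14.8%) were at least 2-fold higher; 25 of the 27 are also in lists the study chose on these samples, so their direction is not independent. The authors' deposited table listed the microfibril gene Fbn1 at 2.78, Tnc (tenascin-C) at 1.90, Tgfb3 at 1.30 and Thbs1 at 1.04, against 0.31 for Spp1 (osteopontin), 0.32 for Vtn (vitronectin), 0.37 for Edil3 and 0.53 for Lamb1. Other adhesion receptors, 25 genes, had a median of 0.74 with 24 under the shared-gene median and 2 at least 2-fold higher. Of the 25, 7 are also in the study's lists. Highest in the authors' deposited table were Sdc4 (1.19), Nectin3 (1.01), Cadm4 (0.96) and Dag1 (0.89), and the lowest Ncam2 (0.22), Chl1 (0.46), Nrcam (0.49) and F11r (0.52). The 14 genes that cut or modify cadherins had a median of 0.91, between the surface and the cytosolic genes. In the authors' deposited table Fjx1 (1.16), Pcsk7 (1.15), the gamma-secretase gene Aph1a (1.12) and Furin (1.06) were highest. Adam10, the protease that sheds N-cadherin, was lowest in the authors' deposited table at 0.70, with Ncstn at 0.73 and Adam17 at 0.79.

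Of the 83 genes, 9 had entered the study's own lists. The list for the outer face of the plasma membrane, with 91 of the 13278 shared genes, held all 9. They were Cdh5, Cdh13, Itga1, Itga2b, Itga3, Itga5, Itga6, Itgav and Itgb1. The extracellular matrix list, with 280 shared genes, held 2 of these (Itga6 and Itgb1). The other 74 genes had no part in those lists. With Pcdhgc4 counted as having a row, 40 of the 127 genes that GENCODE M21 annotates under the same name pattern had none. Among them were the leukocyte integrins Itgal, Itgam, Itgax and Itgb2, E-cadherin (Cdh1), Pcdh8, Pcdh15 and 13 of the 14 Pcdha genes. By class, rows were found for 13 of 17 alpha and 5 of 8 beta integrins, 13 of 18 classical cadherins, 9 of 12 non-clustered protocadherins and 8 of 9 giant cadherins. What a missing row means for the level of a gene is not given by the tables.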

How the data were processed

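RNA from heavy complexes was sequenced in 6 libraries, 3 per extraction, prepared with a stranded kit for total RNA, per the labels' protocols. The submitters' processing notes name TopHat2, featureCounts and mm10; the sources used here give no versions, strand setting, scaling or rule for listing a gene. Per the file headers, the authors deposited 1 log2 fold change per gene, optimized over standard. The authors' gene ontology and pathway tables repeat these log2 values, with a largest difference of 0. Depth is unknown, and unmatched columns of per-sample values numbered 0.

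From these values medians, quartiles and counts were computed; no test was possible. Members, classes and gene lists were chosen with earlier results of these data known. Every member may be named; of each further list the 4 highest and the 4 lowest genes are named, except 1 that is not reported here. Gene models came from GENCODE M21 (GRCm38, the assembly of mm10) by identifier, matching 13273 of 13278 shared genes and all 83 members; the coding sequence is that of the basic transcript with the longest one. A difference was taken to change with a setting if it moved by at least 0.1 on the log2 scale. The medians were tested on simulated data. The tools were Biopython 1.88, matplotlib 3.10.9, pandas 2.3.3, numpy 2.4.6 and scipy 1.17.1 under Python 3.11.15.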

Additional observations from a re-analysis of the deposited data

How the results depend on the processing

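The tables give no value per library, so no batch could be left out and no error stands behind any difference. No paired analysis was possible because the batch letters are not carried by the deposited ratios. The median of the 83 genes less that of all shared genes, -0.43, lay between -0.44 and -0.34 under other settings (means, protein-coding reference, without the study's lists, without genes sharing exon bases, without the clustered genes, or set against genes of similar coding length). Against other genes with an N-terminal hydrophobic stretch, a reference chosen after seeing the data, it was -0.20. That value keeps all 83 genes, of which 35 have such a stretch themselves (median 0.69, against 0.87 in the reference). Alpha minus beta integrins ranged from -0.23 (without the study's lists) to -0.12, classical cadherins minus clustered protocadherins from 0.08 (with means) to 0.17, and surface members minus cytosolic partners from -0.51 to -0.42. Classical cadherins minus other protocadherins moved from -0.12 to -0.24 with means in place of medians; the cause was not tested. The 8 genes at least 2-fold higher became 54 at 1.5-fold, where 94.6% of all shared genes pass. At 2-fold above the median of all shared genes they became 0. The share of all shared genes past that last cutoff was not counted, so the 0 is not read as particular to these genes. Of 83 genes, 79 lay lower than the reference when it was all shared genes. With protein-coding genes as the reference the number was 78, and with genes of similar coding length 77. Against the other genes with an N-terminal stretch it was lower, at 65, of which Pcdhb16 (0.86) had the highest log2 ratio.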
